A study of Mus musculus with 2 samples.

Results

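The values are those of 38 genes of mitosis in mouse fetal liver progenitors and in cells grown from them toward the T lineage. Not all of these cells held markers of that lineage, as given below. The members were taken from a list of names, with no threshold on their measured values but with earlier results of these data known, and all 38 were found among the 28692 genes listed in each of the 2 libraries. Wild type CD1 embryos at E13.5 were the source, and their livers were depleted of TER-119 positive cells before Sca-1+ cKit+ hematopoietic stem and progenitor cells (HSPCs) were sorted. The HSPCs were grown on a coating of DL4, a Notch ligand, and VCAM-1, an adhesion protein, and both 10X Chromium libraries, FL001 and FL002, carry the same label of DL4 plus VCAM. The study pooled cells captured right after the sort and after 2 lengths of culture in days, but neither its text nor the labels say which of these a library holds, the number of embryos or whether the libraries are separate cultures. There was no untreated control and no other condition, so each library was described alone and the libraries were set side by side.

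Each library was divided into 5 gates by raw unique molecular identifiers (UMIs) of genes that mark steps of T lineage entry, and no mitosis gene was used to gate. The progenitor gate took barcodes with 2 or more UMIs of *Lmo2* and *Mef2c* together, regulators of blood progenitors, and at most 1 UMI of *Cd3g*, a chain of the T cell receptor complex. The before-*Cd3g* gate took barcodes with at most 1 UMI of the progenitor regulators and at most 2 of *Cd3g*. The *Cd3g* gate took barcodes with at least 3 *Cd3g* UMIs and no UMI of *Il2ra*, the receptor chain also called CD25, and the *Il2ra* gate took those with at least 1 *Il2ra* UMI. The commitment gate took barcodes with 2 or more UMIs of *Ptcra*, *Lef1* and *Bcl11b* together, genes of T lineage commitment. After filtering, 1788 barcodes of FL001 and 4100 of FL002 were kept, of which 428 and 724 were in the progenitor gate, 381 and 1134 in the before-*Cd3g* gate, 327 and 873 in the *Cd3g* gate, 738 and 1668 in the *Il2ra* gate and 451 and 501 in the commitment gate. The gates overlapped, with 539 barcodes of FL001 and 802 of FL002 in more than 1 gate, with 275 and 291 shared by the commitment and *Il2ra* gates, 168 and 198 by the commitment and *Cd3g* gates, 75 and 276 by the before-*Cd3g* and *Il2ra* gates and 17 and 36 by the progenitor and *Il2ra* gates. The gates are not time points, and cells are not replicates, so no test was made. Intervals are 95% exact intervals that cover counting error only.

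Mitosis is started by Cdk1 bound to cyclin B, which drives the condensation of chromosomes and the assembly of the spindle. Chromosomes attach to the spindle through kinetochores, a checkpoint holds the cell until all are attached, and then the anaphase promoting complex marks cyclin B and other proteins for destruction so that the cell can divide. The RNAs of these proteins accumulate late in the cell cycle and are low in resting cells, and HSPCs and early T precursors are known as dividing cells. The members were ordered by role, as cyclins with *Cdk1* and its binding protein *Cks2* (5 genes), other kinases (6), the chromosomal passenger complex (4), the kinetochore (5), kinesin motors (6), other spindle proteins (4), ubiquitin ligase partners that act at entry into mitosis or at its end (3), chromosome structure (3) and cytokinesis (2).

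Promoters are shown for the members on which the results below turn, *Ube2c* and *Cdc20*, *Ccnb1* and *Ccnb2*, and for *Cks2*, the member with the most UMIs. The sequences are RefSeq promoters of GRCm38.p6, printed 5′ to 3′ from 200 bases before the start of the transcript to 30 bases after it. Capitals mark CCAAT, the box bound by the factor NF-Y, and TTTGAA or TTTAAA, the element known as CHR through which many late cell cycle genes are repressed in resting cells, each on either strand.
Ube2c promoter, chr2:164769729-164769958, plus strand: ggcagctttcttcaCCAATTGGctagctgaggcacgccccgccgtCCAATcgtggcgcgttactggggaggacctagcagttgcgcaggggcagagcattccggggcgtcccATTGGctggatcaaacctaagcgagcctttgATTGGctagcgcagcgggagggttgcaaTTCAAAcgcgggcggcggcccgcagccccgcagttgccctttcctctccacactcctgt
Cdc20 promoter, chr4:118437314-118437543, minus strand: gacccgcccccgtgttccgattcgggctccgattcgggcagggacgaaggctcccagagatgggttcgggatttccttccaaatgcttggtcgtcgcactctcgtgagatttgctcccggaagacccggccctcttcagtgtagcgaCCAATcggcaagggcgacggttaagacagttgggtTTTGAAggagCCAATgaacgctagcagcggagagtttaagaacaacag
Ccnb1 promoter, chr13:100786457-100786686, minus strand: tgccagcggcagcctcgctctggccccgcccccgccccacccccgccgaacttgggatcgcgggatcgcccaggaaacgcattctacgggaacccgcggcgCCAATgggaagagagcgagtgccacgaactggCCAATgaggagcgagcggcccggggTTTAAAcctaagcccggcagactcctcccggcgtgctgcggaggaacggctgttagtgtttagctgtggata
Ccnb2 promoter, chr9:70421525-70421754, minus strand: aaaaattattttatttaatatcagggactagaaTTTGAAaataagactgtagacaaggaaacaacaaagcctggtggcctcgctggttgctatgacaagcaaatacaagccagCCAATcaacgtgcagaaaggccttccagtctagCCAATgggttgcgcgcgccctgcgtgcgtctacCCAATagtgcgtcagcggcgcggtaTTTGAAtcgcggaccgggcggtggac
Cks2 promoter, chr13:51645032-51645261, plus strand: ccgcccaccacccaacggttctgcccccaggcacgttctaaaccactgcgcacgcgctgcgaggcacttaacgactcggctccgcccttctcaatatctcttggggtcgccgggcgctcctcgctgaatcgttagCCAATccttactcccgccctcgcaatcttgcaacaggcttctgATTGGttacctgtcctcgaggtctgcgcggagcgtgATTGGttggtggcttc

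Among the 38 members, 32 had an entry, with 34 promoters in all, and *Aurkb*, *Ccna2*, *Cdca2*, *Incenp*, *Kif20a* and *Tpx2* were not matched. Matches were counted over the full 300 bases of an entry, from 250 before to 50 after the start, on both strands, and where 2 matches of CCAAT on opposite strands overlap both were counted. CCAAT was found in 27 of the 34 member promoters (79.4%) and in 37.4% of all 32851 promoters in the table. TTTGAA was found in 26 (76.5%) against 17.9% of all promoters, and both motifs together in 22 (64.7%) against 6.95%. *Ube2c* had 6 matches of CCAAT and 1 of TTTGAA, *Ccnb2* had 3 and 2, *Cdc20* had 2 and 1, and *Ccnb1* had 2 of CCAAT with 1 of TTTAAA in place of TTTGAA. *Cks2* had 4 matches of CCAAT and none of either CHR form. These counts describe letters in the windows, and the data of this study do not measure binding.

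The libraries held 16320118 UMIs in FL001 and 22651783 in FL002, and kept barcodes had 1559 to 27025 UMIs (median 7722) and 1510 to 17589 UMIs (median 4752.5). The barcode sequences of 10 kept barcodes were found in both libraries, and without them the ratios of the summed share below ran from 0.699 to 0.791. Defining markers followed the gates: in the progenitor gate the 7 progenitor markers summed to 1025.3 CPM (counts per 1000000 UMIs of the gate) in FL001 and 1074.9 CPM in FL002 and the 10 T lineage markers to 71.0 and 95.6 CPM, while in the commitment gate the progenitor markers were at 39.2 and 43.9 CPM and the T lineage markers at 5854.6 and 5601.8 CPM. The gate genes are on these lists, so this agreement follows in part from the gating. The before-*Cd3g* gate lay between, with progenitor markers at 189 and 204 CPM and T lineage markers at 392 and 551 CPM. At least 3 T lineage UMIs were found in only 44.4% and 41.3% of its barcodes. Markers of other cells moved with the gates as well. At least 3 UMIs of the 9 neutrophil and monocyte markers were found in 71.7% and 52.3% of the barcodes of the progenitor gate, 43.6% and 24.1% of the before-*Cd3g* gate and 1.55% and 1.20% of the commitment gate, and all 9 genes were detected in the progenitor gate. Their summed level was 2516.0 and 1665.4 CPM in the progenitor gate, 3762.5 and 1131.9 CPM in the before-*Cd3g* gate and 31.1 to 276 CPM in the later ones, so in FL001 it was highest in the before-*Cd3g* gate. The 6 megakaryocyte markers stood at 672 and 341 CPM in the progenitor gate and at 9.29 to 52.6 CPM in the later gates. Only 3.04% and 2.21% of the barcodes of the progenitor gate had at least 3 of these UMIs. The 8 erythroid markers ran from 1.59 to 720 CPM, and 6 of them had no UMI in the commitment gate of FL002. The 720 CPM belonged to the before-*Cd3g* gate of FL001, where 0.787% of barcodes had at least 3 erythroid UMIs. The 5 mast cell and basophil markers ran from 23.7 to 127 CPM and the 6 B cell markers from 18.7 to 94.7 CPM, while the 7 innate lymphoid and NK markers ran from 14.8 CPM in the progenitor gate to 120 CPM. Of the mast cell and basophil genes, 3 had no UMI in the progenitor, *Cd3g*, *Il2ra* and commitment gates of FL001. At least 3 UMIs of that list were still found in 14.7%, 12.6% and 10.4% of the barcodes of the last 3 of these gates.

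The 38 genes took their largest share of UMIs in the progenitor gate of both libraries. Their UMIs made up 0.500% (0.493 to 0.507) of all UMIs of that gate in FL001, and 0.515% (0.508 to 0.522) was measured for FL002. The share in FL001 was 0.369% in the before-*Cd3g* gate, 0.364% in the *Cd3g* gate, 0.393% in the *Il2ra* gate and 0.385% in the commitment gate. In FL002 the same gates had 0.360%, 0.361%, 0.370% and 0.388%. The progenitor gate stood apart, and the 4 later gates lay close together in both libraries. Relative to the progenitor gate, the before-*Cd3g* gate had 0.738 (0.721 to 0.756) of its share in FL001 and 0.699 (0.686 to 0.712) in FL002, and the commitment gate 0.769 (0.752 to 0.786) and 0.754 (0.736 to 0.773). All 8 ratios lay between 0.699 and 0.786 with intervals below 1. Each ratio shares the same progenitor barcodes as its base, so the 4 ratios of a library are not independent of each other.

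**Figure D1:**
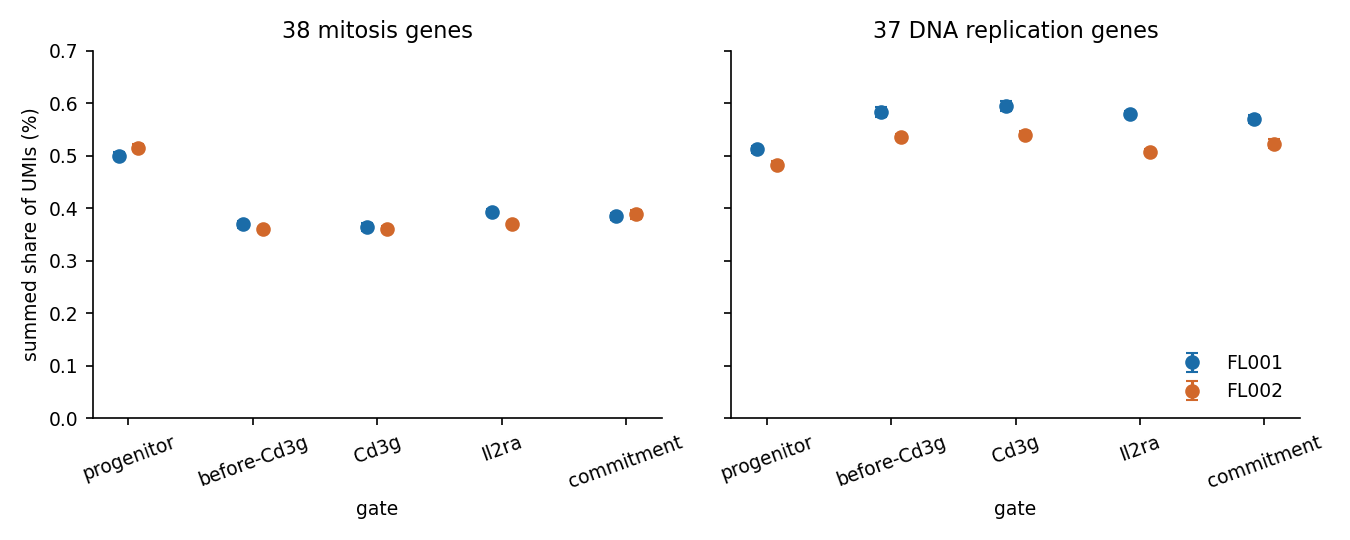
Summed share of UMIs (%) of the 38 mitosis genes (left) and of 37 DNA replication genes (right) in each gate, blue for FL001 and orange for FL002, with 95% exact Poisson intervals mostly smaller than the points. The mitosis share is 0.500% and 0.515% in the progenitor gate and 0.360% to 0.393% in the later gates, while the replication share is lowest in the progenitor gate.

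Genes of DNA replication, which peak earlier in the cell cycle, did not share this order. The 37 genes of a replication list summed to 0.512% (0.505 to 0.519) of the UMIs of the progenitor gate in FL001 and to 0.569% to 0.595% in the later gates. In FL002 they summed to 0.483% (0.476 to 0.489) and to 0.507% to 0.540%. The mitosis list therefore had 0.977 UMIs for each replication UMI in the progenitor gate of FL001 against 0.612 to 0.679 in the later gates, and 1.07 against 0.668 to 0.742 in FL002.

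Member UMIs were also counted by barcode. At least 10 member UMIs were found in 62.0% (59.7 to 64.2) of the kept barcodes of FL001 and 53.5% (52.0 to 55.1) of FL002, and these barcodes held 96.4% and 92.8% of the member UMIs with 75.3% and 67.3% of all UMIs. The part of member UMIs in them is high partly because the barcodes were chosen by the same UMIs, and it was not compared with an even spread. No member UMI was found in 5.54% and 6.17% of barcodes. The distribution had no gap at the threshold, with 62 and 171 barcodes at 8 or 9 member UMIs and 58 and 139 at 10 or 11. By gate, the share of barcodes with 10 or more was highest in the progenitor gate, at 69.4% (64.8 to 73.7) in FL001, and FL002 had 67.8% (64.3 to 71.2). It was 61.9% and 52.4% in the before-*Cd3g* gate, 62.1% and 50.4% in the *Cd3g* gate, 58.8% and 49.3% in the *Il2ra* gate and 55.9% and 47.9% in the commitment gate. The intervals of the later gates lay below that of the progenitor gate in FL002, whereas in FL001 those of the before-*Cd3g* and *Cd3g* gates (56.9 to 66.8 and 56.6 to 67.4) overlapped it.

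Such a share grows with the depth of a barcode, and the progenitor gate was the deepest in both libraries, with a median of 8014.5 UMIs against 6998 to 7909 in FL001 and 5649.5 against 4175 to 4842 in FL002. After thinning every barcode to 1500 UMIs, the expected share with at least 5 member UMIs was 48.7% in the progenitor gate of FL001 against 35.6% to 40.2% in the later gates, and 54.8% against 37.7% to 39.4% in FL002. Among barcodes with 10 or more member UMIs, the members made up 0.607% of UMIs in the progenitor gate against 0.452% to 0.517% in FL001, and 0.633% against 0.500% to 0.576% in FL002. The progenitor gate thus held both a larger share of such barcodes and a higher share of mitosis UMIs within them. With gates set on counts thinned to 1500 UMIs, which left 108 and 217 barcodes in the progenitor gate, the share with 10 or more member UMIs in the before-*Cd3g* gate was 1.04 and 1.02 times that of the progenitor gate, and the cause of this change was not tested.

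**Figure D2:**
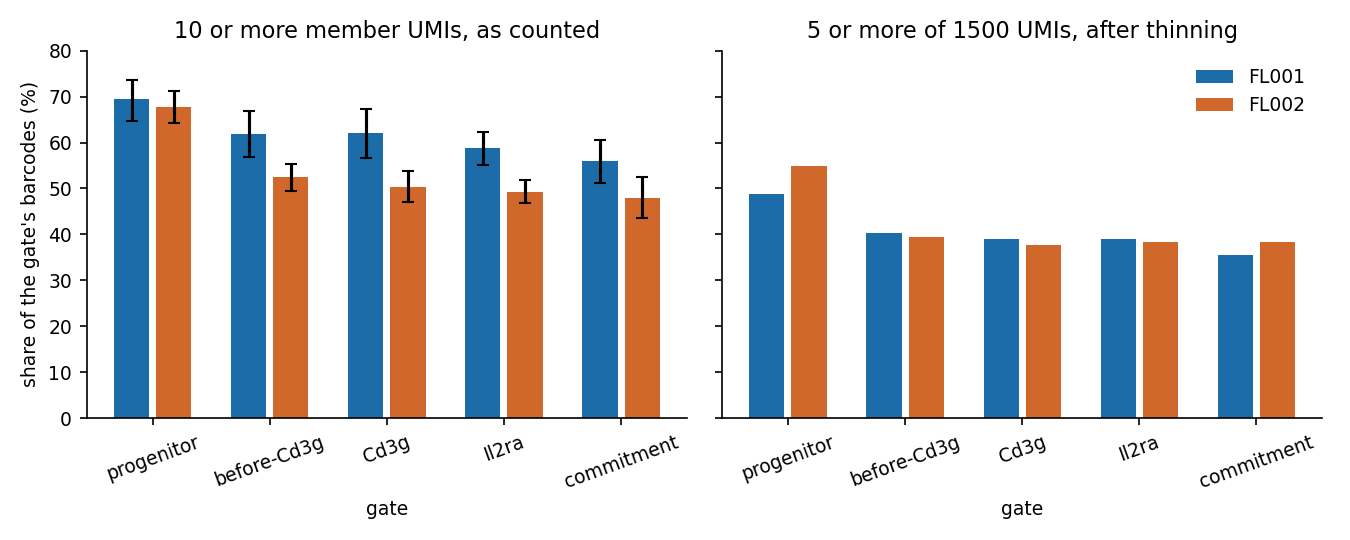
Share of the barcodes of each gate (%) with 10 or more member UMIs as counted, with exact binomial 95% intervals (left), and the expected share with 5 or more member UMIs after thinning each barcode to 1500 UMIs, with no interval (right), blue for FL001 and orange for FL002. The progenitor gate is highest in both panels, at 69.4% and 67.8% as counted and at 48.7% and 54.8% after thinning.

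At matched depth the progenitor gate was highest in each bin from 6000 UMIs in FL001 and from 4000 UMIs in FL002, by different amounts. In every gate the member share was higher in the largest barcodes shown than in the smallest. From 6000 to under 9000 UMIs in FL001 it was 0.374% (0.363 to 0.386) in the progenitor gate and 0.303% to 0.342% in the later gates. From 9000 to under 14000 UMIs in FL001 it was 0.610% (0.598 to 0.623) in the progenitor gate and 0.399% to 0.480% in the later gates. From 4000 to under 6000 UMIs in FL002 it was 0.391% (0.380 to 0.402) against 0.319% to 0.374%. From 6000 to under 9000 UMIs in FL002 it was 0.602% (0.591 to 0.614) against 0.434% to 0.489%. In smaller barcodes the order differed between bins. From 2500 to under 4000 UMIs the progenitor gate of FL001 had 0.244% (0.213 to 0.278) on 28 barcodes, above the 0.116% to 0.217% of the later gates. From 4000 to under 6000 UMIs the progenitor gate of FL001 had 0.220% (0.206 to 0.234), within the 0.201% to 0.305% of the later gates. From 2500 to under 4000 UMIs the progenitor gate of FL002 had 0.226% (0.212 to 0.241), and the commitment gate had 0.262% (0.249 to 0.277).

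**Figure D3:**
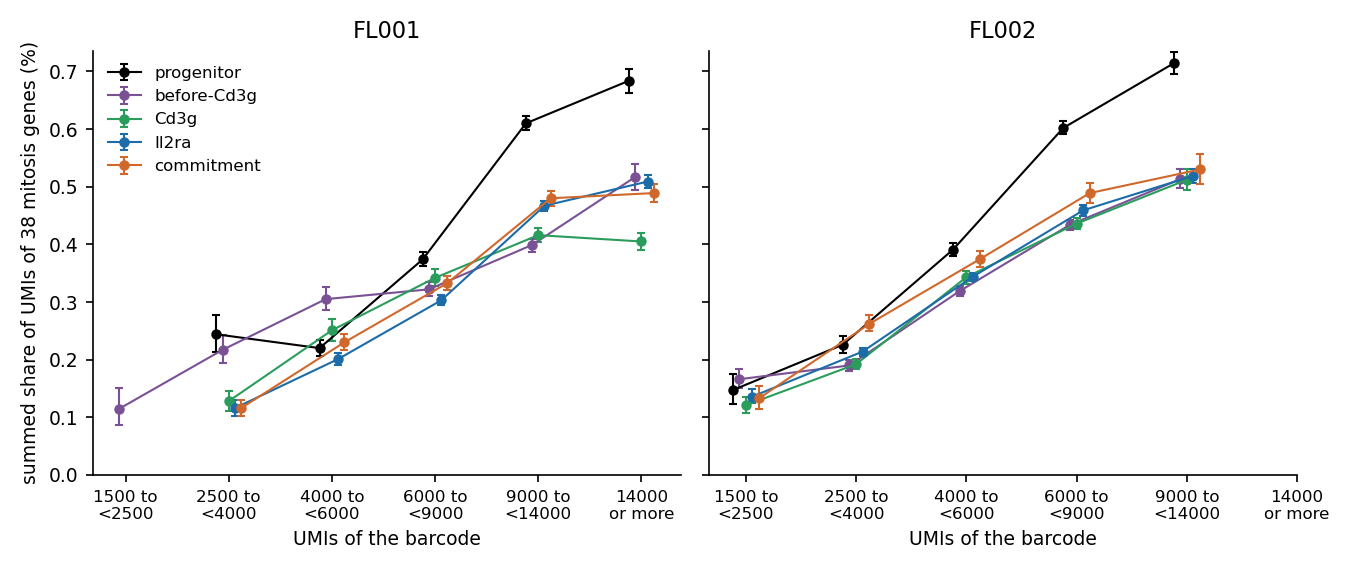
Summed share of UMIs (%) of the 38 mitosis genes against the UMIs of the barcode in 6 bins, by gate (colours) in FL001 (left) and FL002 (right), with 95% exact Poisson intervals. Bins with under 20 barcodes are not shown, and the progenitor gate (black) lies above the others from 6000 UMIs in FL001 and from 4000 UMIs in FL002.

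The lower level in the later gates was spread over most members. Single genes were compared with the progenitor gate by their CPM summed over a gate, for genes with at least 20 UMIs in both gates together and at least 20 CPM in either, and a gene was counted as past the fold at 1.5-fold. *Anln* and *Ttk* passed this filter in no comparison, *Nek2* passed it in 5 of 8, and the other 35 members passed it in all 8. *Nek2* in FL002 passed only through the progenitor gate, with 21.4 CPM there and 11.4 to 15.2 CPM later. So did *Ect2* in the before-*Cd3g* comparison, at 25.4 against 15.2 CPM in FL001 and 28.2 against 15.5 CPM in FL002. Their calls below the progenitor gate are among the counts that follow and depend on that filter. In FL001, 12 of 35 members were past the fold below the progenitor gate in the before-*Cd3g* gate, where 5.31% of all genes were. The counts were 13 of 35 in the *Cd3g* gate (11.0% of all genes), 4 of 35 in the *Il2ra* gate (10.0%) and 10 of 36 in the commitment gate (12.6%). In FL002 the counts below were 12 of 36 in the before-*Cd3g* gate (4.47% of all genes), 14 of 36 in the *Cd3g* gate (9.15%), 10 of 36 in the *Il2ra* gate (8.59%) and 10 of 36 in the commitment gate (11.7%). In the *Il2ra* gate of FL001, 11.4% of members were thus near the share of all genes, and in the other comparisons the members' share was larger than that background. These counts moved by over 1.5 times with TMM factors in FL002, to 9 in the *Cd3g* gate (of 36 against 8.05% of all genes) and 4 in the *Il2ra* gate (of 36 against 7.18%), and without barcodes carrying markers of other cells in the before-*Cd3g* gate of FL001, to 6 (17.1% of members against 10.6% of all genes). With gates set on thinned counts they were 28 and 25 in the *Il2ra* and commitment gates of FL001 (73.7% and 65.8% of members against 17.4% and 19.4% of all genes) and 4 and 7 in the before-*Cd3g* and *Cd3g* gates of FL002 (10.8% and 18.9% against 7.43% and 13.3%). Without barcodes carrying markers of other cells, the *Il2ra* gate of FL001 had 16.7% of members against 16.4% of all genes. The commitment gate there had 22.2% against 17.0%, and the *Cd3g* gate 44.4% against 16.8%. The gates of FL002 had 22.9% to 45.7% against 7.30% to 12.9%. With no filter on low counts, members fell below the background only in the *Il2ra* gate of FL001, at 13.2% against 23.4%.

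No member was past the fold above the progenitor gate in any comparison, though without barcodes carrying markers of other cells 1 or 2 members were in each of the last 3 gates of FL001, and with gates on thinned counts 1 was in the commitment gate of FL002, against 13.7% to 18.7% of all genes in these 4 comparisons. Of all genes, 5.26%, 9.85%, 9.25% and 12.4% were in the before-*Cd3g*, *Cd3g*, *Il2ra* and commitment gates of FL001, and 4.76%, 9.04%, 9.14% and 13.0% in FL002. The median member ratio was 0.728, 0.734, 0.798 and 0.757 in the 4 later gates of FL001 and 0.713, 0.728, 0.716 and 0.752 in FL002, while the median of all genes was 0.973 or more in every comparison. The members below 1 in both libraries numbered 34 of 35 in the before-*Cd3g* gate, 34 of 35 in the *Cd3g* gate, 33 of 35 in the *Il2ra* gate and 32 of 36 in the commitment gate. In single comparisons, 33 to 36 of the 35 or 36 tested members were below 1, against 49.0% to 53.1% of all genes. Without the filter, 294 of the 304 ratios of the 38 members were below 1, and 33 members were below 1 in all 8. The share of all genes was not counted over both libraries or over all 8 comparisons. The counts of comparisons given for single members below therefore have no background beside them. The 4 ratios of a gene in a library share the progenitor barcodes, so the 8 are not independent.

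**Figure D4:**
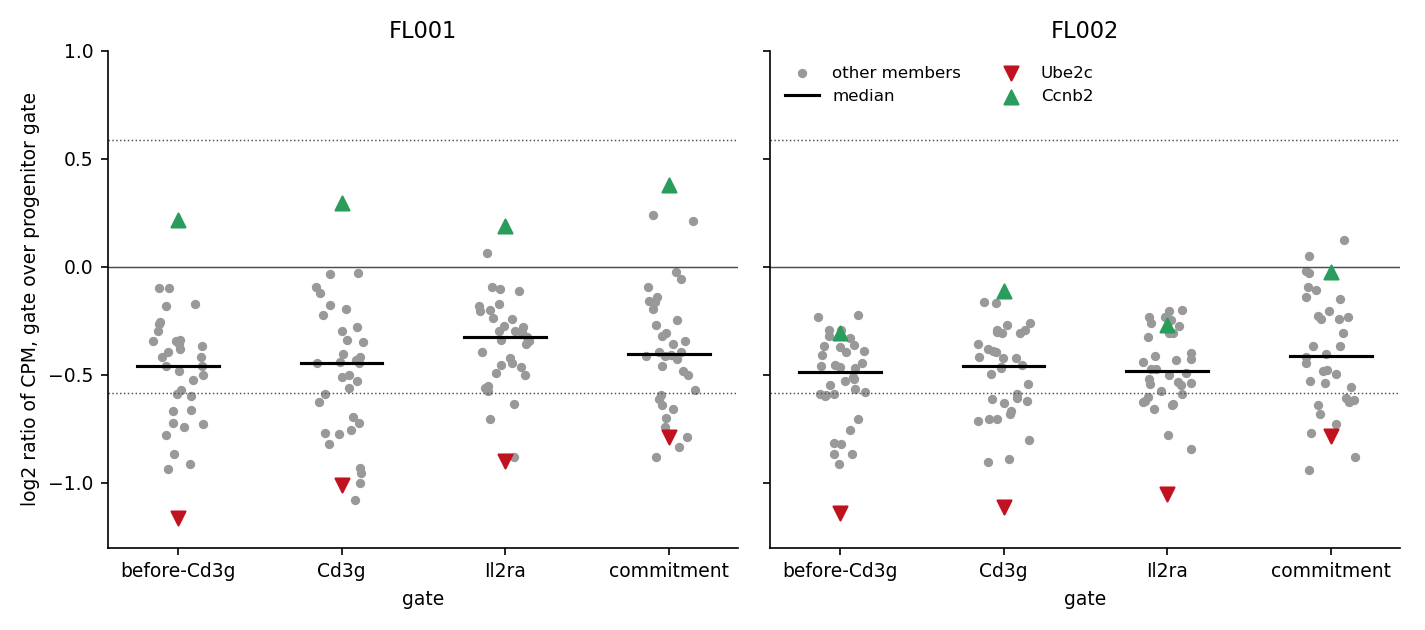
The log2 ratio of CPM of each member that passed the filter, in each later gate over the progenitor gate, in FL001 (left) and FL002 (right), with black bars at the medians, a line at 0 and dotted lines at 1.5-fold. Most points lie below 0, *Ube2c* (red) is lowest or among the lowest everywhere, and *Ccnb2* (green) lies above 0 in FL001 (ratios of 1.14 to 1.30) and below 0 in FL002 (0.808 to 0.983), though above 0 there too (1.12 to 1.36) without barcodes carrying markers of other cells.

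The ubiquitin group held *Ube2c*, which was lower in the later gates of both libraries. The gene (ENSMUSG00000001403) encodes the E2 enzyme that works with the anaphase promoting complex. In FL001 it had 318 CPM (300 to 337) in the progenitor gate and 142, 158, 171 and 184 CPM in the before-*Cd3g*, *Cd3g*, *Il2ra* and commitment gates. In FL002 it had 310 CPM (294 to 328) and 140, 144, 150 and 180 CPM. With all kept barcodes, the progenitor gate lay above every later gate without overlap of intervals in both libraries. The ratios to it ran from 0.446 (0.398 to 0.499) in the before-*Cd3g* gate to 0.580 (0.526 to 0.639) in the commitment gate of FL001, and from 0.452 (0.414 to 0.494) to 0.581 (0.520 to 0.648) in FL002. *Ube2c* in the before-*Cd3g* gate was the single case in which a member was at least 1.5-fold from the members' median ratio, with an interval leaving that median out, in both libraries (0.612 and 0.635 of the median). With each barcode in its latest gate only, *Ube2c* met these limits in the *Cd3g* and *Il2ra* gates instead, and with gates on thinned counts in the *Il2ra* gate. *Cdc20* (ENSMUSG00000006398), which activates the same complex, had 217 CPM in the progenitor gate and 191, 192, 192 and 189 CPM in the later gates of FL001. The FL002 library had 234 CPM, and 157, 169, 161 and 175 CPM. Its ratios were 0.873 to 0.884 in FL001 and 0.670 to 0.748 in FL002, above those of *Ube2c*. Without barcodes carrying markers of other cells, the *Cdc20* ratios of FL001 were 1.17, 1.06 and 1.05 in the before-*Cd3g*, *Il2ra* and commitment gates. They rest on the 69 progenitor barcodes left in FL001 and are given without intervals, so a change of direction was not established. *Cdca3*, which serves to trigger the entry into mitosis, had ratios of 0.838 to 0.937 and 0.760 to 0.850.

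*Ube2c* and *Cdc20* were also compared with each other, a pair chosen after their values were seen. UMIs of different genes depend on their sequence, so only the change of the ratio between gates was read. *Ube2c* had 1.47 UMIs (1.34 to 1.60) for each UMI of *Cdc20* in the progenitor gate of FL001 and 0.741 (0.652 to 0.842), 0.823, 0.890 and 0.973 in the later gates. In FL002 the values were 1.33 (1.22 to 1.44) and 0.895 (0.814 to 0.984), 0.848, 0.930 and 1.03. The change was also present among barcodes with 10 or more UMIs of the other members, where *Ube2c* had 395 CPM in the progenitor gate of each library and 188 to 251 CPM (FL001) or 210 to 287 CPM (FL002) in the later gates. *Ube2c* overlaps *Tnnc2* and *Cdc20* overlaps *Elovl1* on the other strand, and the use of strand in counting is not stated in the sources used here.

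Leaving out barcodes with markers of other cells changed this result in FL001. In the progenitor gate of FL001, 359 of 428 barcodes had 3 or more UMIs of the neutrophil and monocyte, megakaryocyte, erythroid, mast cell and basophil or B cell markers, and *Ube2c* had 333 CPM in them and 217 CPM in the other 69. In FL002 the 474 such barcodes had 319 CPM and the other 250 had 289 CPM. Without these barcodes in any gate, the *Ube2c* ratios were 0.692, 0.630, 0.757 and 0.852 in FL001 and 0.457, 0.472, 0.468 and 0.573 in FL002, and *Ube2c* was no longer past the limit for an outlier. The progenitor interval of FL001 (177 to 264 CPM) then overlapped those of the before-*Cd3g* (125 to 180), *Il2ra* (151 to 179) and commitment gates (169 to 202). It did not overlap that of the *Cd3g* gate (119 to 156). In FL002 the progenitor interval (259 to 321 CPM) stayed above those of all later gates, which reached at most 184 CPM. The share of all 38 members without these barcodes was 0.435% in the progenitor gate of FL001 and 0.315% to 0.367% in the later gates, and 0.493% against 0.340% to 0.369% in FL002. Barcodes with these markers were also deeper. Their median was 8418 UMIs against 6033 for the others in the progenitor gate of FL001, and 6118 against 4373.5 in that of FL002. The parts of depth and of the other cell types in these and the remaining differences were not tested.

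**Figure D5:**
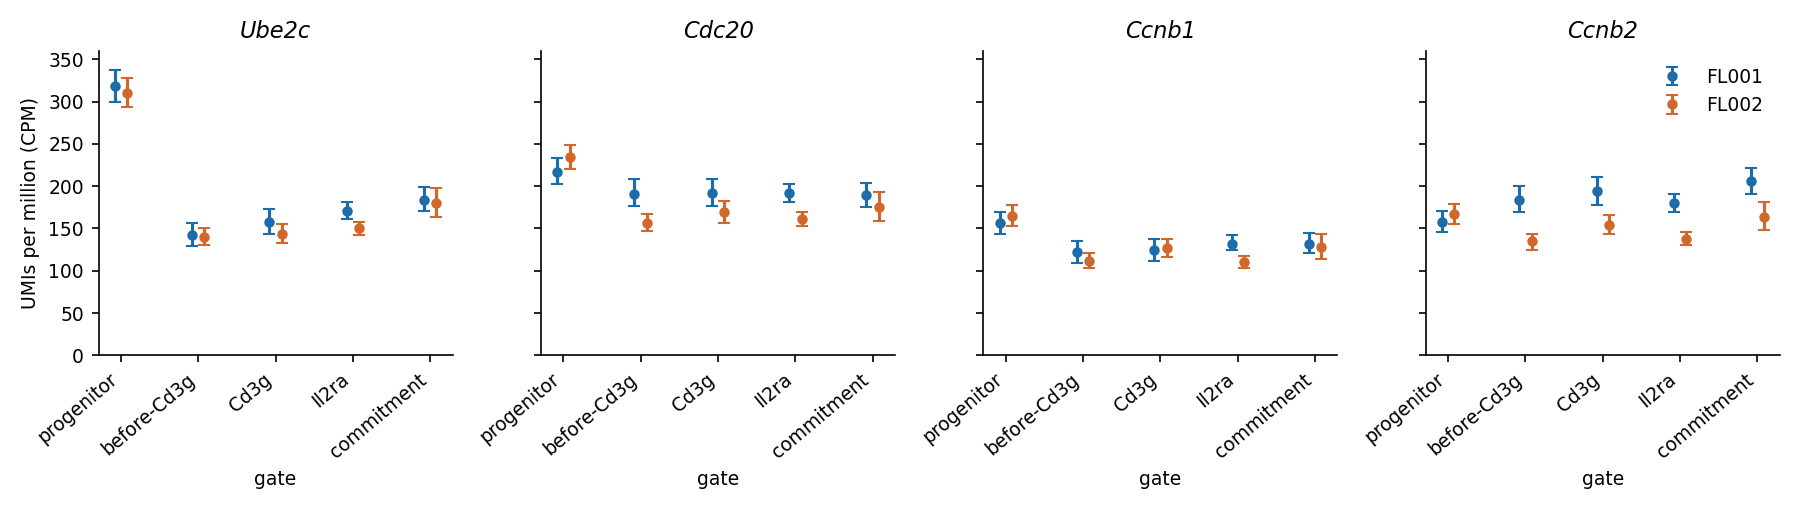
CPM (counts per 1000000 UMIs) of *Ube2c*, *Cdc20*, *Ccnb1* and *Ccnb2* summed over each gate, blue for FL001 and orange for FL002, with 95% exact Poisson intervals. *Ube2c* is at 318 and 310 CPM in the progenitor gate and at 140 to 184 CPM in the later gates, and *Ccnb2* in FL001 is higher in the later gates (180 to 206 CPM) than in the progenitor gate (158 CPM).

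The cyclin group differed within itself. *Ccnb1* (ENSMUSG00000041431), a B type cyclin that activates Cdk1, had 157 CPM in the progenitor gate of FL001 and 122, 124, 132 and 132 CPM in the later gates. In FL002 it had 165 CPM, and 112, 127, 110 and 128 CPM. *Ccnb2* (ENSMUSG00000032218), the other B type cyclin of the list, went the other way in FL001, with 158 CPM (146 to 171) in the progenitor gate and 184, 194, 180 and 206 CPM in the later gates. The FL002 library had 167 CPM, and 135, 154, 138 and 164 CPM. The ratios of *Ccnb2* were 1.16, 1.23, 1.14 and 1.30 (1.17 to 1.45) in FL001, with all 4 intervals above 1, and 0.808, 0.926, 0.829 and 0.983 (0.867 to 1.11) in FL002. The libraries differed in direction for this gene with all kept barcodes. Without barcodes carrying markers of other cells, however, the ratios of FL002 were 1.23, 1.28, 1.12 and 1.36, above 1 as in FL001. These values rest on 250 progenitor barcodes in FL002 and are given without intervals. With gates on thinned counts the *Il2ra* gate of FL001 was at 0.934 and the commitment gate of FL002 at 1.03. With all kept barcodes it was the highest of all members in every later gate of FL001, at 1.43 to 1.72 times the members' median ratio, and in FL002 *Kif20b*, *Ccnb2*, *Bub1b* and *Ect2* were highest in turn.

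In both libraries *Ccnb2* was higher relative to *Ccnb1* outside the progenitor gate, again a pair chosen after the values were seen. It had 1.01 UMIs for each UMI of *Ccnb1* in the progenitor gate of FL001 (0.898 to 1.13) and of FL002 (0.907 to 1.12). In the later gates the ratio was 1.51, 1.56, 1.36 and 1.56 in FL001 and 1.20, 1.22, 1.26 and 1.28 in FL002. The intervals of the later gates of FL001, from 1.25 upward, did not reach that of the progenitor gate, and those of FL002 started at 1.08 to 1.15 and overlapped it in all later gates but the *Il2ra* gate. Without barcodes carrying markers of other cells, the *Ccnb2* ratios to the progenitor gate were 1.38 to 1.69 in FL001, higher than with all barcodes as in FL002, and *Ccnb2* was then past the limit for an outlier above the median in all 4 gates.

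The other members of the group were lower in every later gate. *Cks2* (ENSMUSG00000062248), a small subunit of Cdk complexes, had 649 CPM in the progenitor gate of FL001 and 486, 477, 511 and 459 CPM in the later gates. In FL002 it had 726 CPM, and 503, 483, 516 and 473 CPM. Its ratios ran from 0.708 to 0.788 and from 0.651 to 0.711, and its part of the member UMIs was 13.0% in FL001 and 13.9% in FL002. *Cdk1*, the kinase itself, had ratios of 0.743 to 0.870 and 0.651 to 0.699. *Ccna2*, the A type cyclin of S phase and early mitosis, had 0.726 to 0.833 and 0.573 to 0.703. Summed, the 5 genes had 0.809 to 0.844 of their progenitor level in FL001 and 0.697 to 0.707 in FL002.

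The chromosomal passenger complex, which corrects the attachment of chromosomes and later moves to the site of division, was lower in each of its 4 genes and in all 8 comparisons, with every interval below 1. *Birc5* (ENSMUSG00000017716), also called survivin, had 326 CPM in the progenitor gate and 257, 284, 283 and 291 CPM in the later gates of FL001. The FL002 library had 354 CPM, and 258, 265, 264 and 302 CPM. *Cdca8* (ENSMUSG00000028873), which encodes borealin, had 248 CPM, and 196, 182, 198 and 186 CPM in FL001. In FL002 it had 265 CPM, and 192, 174, 182 and 184 CPM. *Aurkb*, the kinase of the complex, had ratios of 0.524 to 0.746 in FL001 and 0.611 to 0.661 in FL002, and *Incenp*, its scaffold, 0.543 to 0.645 and 0.624 to 0.726. The kinase and the scaffold were lower relative to the progenitor gate than *Birc5*, at 0.787 to 0.893 and 0.728 to 0.853.

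Among the other kinases, *Aurka*, which acts at spindle poles, was past the fold in 6 of 8 comparisons, with ratios of 0.550 to 0.827 in FL001 and 0.588 to 0.642 in FL002. *Plk1*, which acts at many steps from entry to division, was past it in none. Its ratios were 0.761, 0.755, 1.04 and 0.983 in FL001 and 0.735, 0.890, 0.828 and 0.988 in FL002. The intervals of *Plk1* held 1 in the commitment gate of both libraries (0.825 to 1.17 and 0.823 to 1.18). The checkpoint kinases *Bub1* and *Bub1b* had ratios of 0.648 to 0.888 and 0.630 to 0.753 in FL001 and of 0.614 to 0.773 and 0.812 to 0.979 in FL002. *Ttk* and *Nek2* had at most 21.4 CPM in any gate and wide intervals.

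With all kept barcodes, kinetochore genes were lower in each later gate, by different amounts. Without barcodes carrying markers of other cells, *Cenpa* was at 1.17 in the before-*Cd3g* gate of FL001. This value rests on 69 progenitor barcodes and has no interval here, and ratios of the other kinetochore genes are not given for this setting. *Cenpa* (ENSMUSG00000029177), the histone that marks centromeres, had 292 CPM in the progenitor gate and 273, 238, 236 and 243 CPM in the later gates of FL001. The FL002 library had 301 CPM, and 246, 225, 244 and 244 CPM. Its ratios of 0.747 to 0.934 were among the higher ones. *Cenpf*, a large kinetochore protein, was past the fold in all 8 comparisons, as was *Ube2c* and no other member. These comparisons share the progenitor barcodes of a library, and the share of all genes past the fold in all 8 was not counted. It had 165 CPM in the progenitor gate of FL001 and 86.2, 78.2, 89.8 and 92.6 CPM in the later gates, and 166 CPM and 94.4, 89.1, 108 and 101 CPM in FL002. The motor *Cenpe* had ratios of 0.696 to 0.717 in FL001 and 0.725 to 0.845 in FL002, and *Ndc80* and *Nuf2*, which form the contact with microtubules, had 0.721 to 0.939 and 0.720 to 0.980. The intervals of *Ndc80* lay below 1 in 2 of 8 comparisons and those of *Nuf2* in 4.

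The kinesins and spindle proteins were lower by different amounts. *Kif23*, a motor of the central spindle, was past the fold in 7 of 8 comparisons and below the members' median in all 8, with ratios of 0.579 to 0.683 in FL001 and 0.522 to 0.583 in FL002. *Prc1*, which bundles the microtubules of the same structure, had ratios of 0.517 to 0.728 and 0.614 to 0.681, and *Nusap1*, a microtubule binding protein, 0.499 to 0.712 and 0.569 to 0.756. *Kif11*, the motor that separates the poles, differed between the libraries in size, at 0.592 to 0.615 in FL001 and 0.730 to 0.902 in FL002. *Kif20a*, *Kif20b*, *Kif22* and *Kif2c* had ratios of 0.586 to 0.961, with intervals below 1 in 3, 7, 8 and 3 of 8 comparisons. *Tpx2* and *Hmmr*, of spindle assembly, had 0.663 to 0.867 and 0.666 to 0.939.

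Genes of chromosome structure differed between the libraries. *Top2a* (ENSMUSG00000020914), the topoisomerase that untangles sister chromosomes, had 364 CPM in the progenitor gate of FL001 and 258, 257, 288 and 277 CPM in the later gates. In FL002 it had 357 CPM, and 284, 289, 310 and 335 CPM. Its ratios were 0.706 to 0.792 in FL001 and 0.796 to 0.939 in FL002. *Mki67*, the gene of the proliferation antigen Ki-67, had ratios of 0.617 to 0.715 in FL001 and of 0.816, 0.893, 0.852 and 1.03 (0.882 to 1.21) in FL002. *Cdca2*, a phosphatase subunit on chromosomes, had 0.606 to 0.814 and 0.543 to 0.684. In cytokinesis, *Ect2*, the activator of RhoA at the division site, had 25.4, 15.2, 24.8, 20.7 and 29.4 CPM from the progenitor to the commitment gate of FL001 and 28.2, 15.5, 23.4, 19.4 and 30.8 CPM in FL002. It was lowest in the before-*Cd3g* gate, at 0.598 (0.409 to 0.861) and 0.548 (0.412 to 0.725) of the progenitor level, while in the commitment gate the intervals of 1.16 (0.868 to 1.55) and 1.09 (0.805 to 1.47) held 1. *Anln*, an actin binding protein of the cleavage furrow, had at most 18.1 CPM.

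Members also differed in how strictly their UMIs sat in barcodes with many other mitosis UMIs. For each member, barcodes were split at 10 UMIs of the other 37 members, and both sets were compared by CPM. *Hmmr* had 99.8% of its UMIs in the high set of FL001 and 98.5% of FL002, *Plk1* 99.6% and 97.9%, *Nusap1* 99.4% and 97.6% and *Ube2c* 98.7% and 98.0%. *Ccnb2* had 89.8% and 86.2%, and *Cks2* 90.2% and 83.2%. The level in the high set was thus 24.8 and 23.9 times that in the rest for *Ube2c*, and 3.18 and 3.21 times for *Ccnb2*. High sets have more UMIs per barcode, and 61.9% and 53.3% of barcodes were in the high set for *Ube2c*. Ratios for *Hmmr* and *Plk1* in FL001 rest on few UMIs outside the high set.

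Other mitosis genes, on a list of genes that are not members, were lower in the later gates as well. Of the 57 listed genes, 44 to 46 passed the filter in a comparison, with 4 to 13 past the fold below the progenitor gate (4 of 45 in the *Il2ra* gate of FL001, under the 10.0% of all genes, and 5 of 46 to 13 of 44 elsewhere, where 4.47% to 12.6% of all genes were), 0 or 1 above, and medians of 0.789 to 0.849 in FL001 and 0.757 to 0.787 in FL002. *Spc25*, a subunit of the same kinetochore complex as *Ndc80* and *Nuf2*, had 73.9, 52.6, 46.7, 60.4 and 55.7 CPM from the progenitor to the commitment gate of FL001 and 78.8, 49.6, 50.2, 52.2 and 57.9 CPM in FL002. Its levels were the most like the summed member level among 3639 genes over 50 CPM, with a Spearman correlation of 0.952 over the 10 values of gate and library, which share barcodes between gates. *Spc25* is named for this likeness, so its lower level in the later gates is not a separate result. *Rbm7* (0.903), *Gnai2* (0.903), *Hsbp1* (0.855) and *Prkrip1* (0.830) followed. Their Pearson correlations were lower, at 0.816, 0.667, 0.780 and 0.710 against 0.977 for *Spc25*, and their levels changed less. *Gnai2* ran only from 334 to 379 CPM, and *Prkrip1* had 44.5 CPM in the progenitor gate and 47.1 CPM in the *Il2ra* gate of FL001. *Hmgb2*, a chromatin protein, had 1961.4 CPM in the progenitor gate of FL001 and 1589.8 to 1767.7 CPM in the later gates, and 2020.5 CPM and 1496.5 to 1745.2 CPM in FL002. *Pttg1*, which encodes securin, was not lower in FL001, with 162 CPM and 172 to 197 CPM, and in FL002 it had 141 CPM and 131 to 159 CPM.

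On the replication list, 36 or 37 of 37 genes passed the filter, with 0 to 2 past the fold above the progenitor gate, where 4.76% to 13.0% of all genes were, none below, where 4.47% to 12.6% were, and medians of 1.07 to 1.14. No comparison held a larger share of replication genes past the fold than of all genes. *Ccne1*, the cyclin of entry into S phase, had 31.0 CPM in the progenitor gate of FL001 and 42.8 to 52.7 CPM in the later gates, and 33.9 CPM and 45.3 to 57.5 CPM in FL002. *Pcna*, the sliding clamp of DNA polymerases, had 24.3 CPM and 24.9 to 31.5 CPM in FL001 and 19.8 CPM and 31.1 to 34.2 CPM in FL002. On a list of 25 regulators of these genes, 12 to 15 passed the filter, with 0 to 2 below and 0 or 1 above, too few to set beside the share of all genes. The medians of those tested were 0.912 to 1.03 in FL001 and 0.877 to 0.987 in FL002. *Nfya*, the subunit of NF-Y that contacts CCAAT, had 37.8, 22.6, 14.5, 20.5 and 19.6 CPM from the progenitor to the commitment gate of FL001 and 37.2, 26.2, 20.2, 18.8 and 18.2 CPM in FL002. Its ratios were 0.384 to 0.597 and 0.488 to 0.704, with all 8 intervals below 1. *Nfya* was chosen after the values of the list were seen, and a link between its level and that of the members was not tested. *Nfyb*, another subunit, had 56.1 CPM and 46.0 to 57.3 CPM in FL001 and 61.2 CPM and 44.8 to 57.6 CPM in FL002. *Foxm1*, an activator of mitosis genes, had 4.95 to 9.71 CPM in all gates, too few UMIs for a comparison, and *Mybl2*, another activator, was lowest at 29.3 CPM in the before-*Cd3g* gate of FL001 and at 21.1 CPM in the commitment gate of FL002.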

How the data were processed

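The authors prepared 3′ single-cell libraries on the 10X Chromium platform. A NextSeq instrument was used for sequencing, and CellRanger gave the matrices of genes by barcodes, but its version and annotation are not given in the sources used here. As deposited, each value is a UMI count, neither normalized nor limited to cells, with 737280 barcodes listed per library. The submitters' processing notes name the genome build mm9.

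Barcodes were kept at 1500 or more UMIs, 500 or more genes and a mitochondrial share of up to 10%. No doublet caller was run; leaving out the 5% of largest barcodes was an alternative. Counts were summed over the barcodes of a gate in each library and given as a percent of UMIs or as CPM (counts per 1000000 UMIs). Intervals are 95% exact Poisson (sums), binomial (shares) or conditional binomial (ratios) intervals. No p-value was computed, since cells are not replicates and no stated condition separates the libraries. Thinned shares are hypergeometric expectations. Overlaps of members with other genes were taken from GENCODE M21 (GRCm38). Python 3.11.15, numpy 2.4.6, scipy 1.17.1, pandas 2.3.3 and edgeR 4.0.16 (TMM factors only) were used.

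The members, gates and gene lists were chosen with earlier results of these data known. Values in every gate are written for the 8 members with the most UMIs and for outliers, and other members are given by role. Genes outside the members come from the fixed lists or are the 5 with the highest likeness to the summed member level. The values of *Ccnb1*, *Cenpf* and *Ect2* in every gate, and the genes named from the lists, were chosen after their values were seen.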

Additional observations from a re-analysis of the deposited data

Results flagged for a closer look

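Barcodes of 1 to 100 UMIs, which no comparison used and which lie far below the depth of the kept barcodes, also held UMIs of the 38 members. They made up 0.435% (0.422 to 0.449) of the UMIs of these barcodes in FL001 and 0.423% (0.411 to 0.436) in FL002, against 0.405% and 0.396% over all kept barcodes. *Ube2c* was at 248 CPM and 186 CPM there, between its levels in the progenitor gate and the later gates, and *Cks2* at 767 CPM and 763 CPM, above its level in every gate. Whether these UMIs come from free RNA, and what part such RNA has in the levels of the gates, was not tested.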

How the results depend on the processing

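Levels, ratios and counts by gate are of 1 library alone, so no library could be left out of them, and the counts over both libraries, the outliers and the likeness have no counterpart with 1. Each ratio already pairs 2 gates of the same library, and no test over the 2 libraries was made. Whether the libraries are separate cultures is not stated, and the gates share barcodes. The ratio of the summed share to the progenitor gate stayed below 1 in all 80 combinations of a gate, a library and an alternative, between 0.578 and 0.843, and 30 of them left the interval of the reported value. In the order of the before-*Cd3g*, *Cd3g*, *Il2ra* and commitment gates, the values were as follows. With a denominator without ribosomal protein and mitochondrial genes, FL001 had 0.720, 0.702, 0.762 and 0.744. With gates on counts thinned to 1500 UMIs, FL001 had 0.711, 0.685, 0.578 and 0.644, and FL002 had 0.838, 0.752 and 0.694 before the commitment gate. With the mean of the barcodes' own shares, FL001 had 0.766 (before-*Cd3g*), 0.768 (*Il2ra*) and 0.734 (commitment), and FL002 had 0.662, 0.697 and 0.729 from the *Cd3g* gate on. With a mitochondrial maximum of 5%, FL001 had 0.810 and 0.806 in the last 2 gates, and FL002 had 0.727, 0.735 and 0.783 from the *Cd3g* gate on. Without barcodes carrying markers of other cells, FL001 had 0.828, 0.843 and 0.840 in the before-*Cd3g*, *Il2ra* and commitment gates, and FL002 had 0.699 in the *Il2ra* gate. With a minimum of 2500 UMIs, FL002 had 0.718 (*Cd3g*) and 0.775 (commitment). With each barcode in its latest gate only, the before-*Cd3g* gate had 0.691 and 0.727.

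For the share of barcodes with 10 or more member UMIs, relative to the progenitor gate, gates on thinned counts gave 1.04 and 1.02 in the before-*Cd3g* gate, 0.859 in the *Cd3g* gate of FL002, 0.759 in the *Il2ra* gate of FL001 and 0.587 and 0.588 in the commitment gate. Thinning the barcodes with a threshold of 5 gave 0.800 in the *Cd3g* gate of FL001. Without barcodes carrying markers of other cells, an alternative added after the data were seen for this count and the following ones, FL001 had 0.788 (before-*Cd3g*) and 0.938 (commitment), and FL002 had 0.810, 0.785 and 0.809 from the *Cd3g* gate on. Leaving out the barcodes found in both libraries was also added then and moved no ratio of the summed share out of its interval. For the share of barcodes the other 28 combinations stayed within the reported interval.

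The number of members past 1.5-fold below the progenitor gate was 9 (*Cd3g*) and 4 (*Il2ra*) in FL002 with TMM factors, and 28 (*Il2ra*) and 25 (commitment) in FL001 and 4 (before-*Cd3g*) and 7 (*Cd3g*) in FL002 with gates on thinned counts. Without barcodes carrying markers of other cells it was 6 (before-*Cd3g*) in FL001, where 1, 2 and 2 members were then past the fold above, from the *Cd3g* gate on. With gates on thinned counts 1 member was past it above in the commitment gate of FL002. Outliers numbered 2 with the latest gate only (*Ube2c* in the *Cd3g* and *Il2ra* gates), 1 with gates on thinned counts (*Ube2c* in the *Il2ra* gate) and 4 without barcodes carrying markers of other cells (*Ccnb2* in every later gate).

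Among the 8 members with the most UMIs, 10 of 256 ratios under an alternative were on the other side of 1, of which 4 had a reported interval that held 1. Without barcodes carrying markers of other cells, *Cdc20* in FL001 had 1.17, 1.06 and 1.05 (before-*Cd3g*, *Il2ra* and commitment), *Cenpa* in the before-*Cd3g* gate of FL001 had 1.17, and *Ccnb2* in FL002 had 1.23, 1.28, 1.12 and 1.36 in the 4 later gates. With gates on thinned counts, *Ccnb2* had 0.934 in the *Il2ra* gate of FL001 and 1.03 in the commitment gate of FL002. These ratios are given without intervals, and those without marker barcodes rest on 69 progenitor barcodes in FL001 and 250 in FL002. The causes of these changes were not tested. The replication share, and the ratios of *Ube2c* to *Cdc20* and of *Ccnb2* to *Ccnb1* UMIs, were not recomputed under the alternatives. The members with the fewest UMIs, *Anln*, *Ttk* and *Nek2*, were limited by depth.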
